A study of Mus musculus with 36 samples.

Results

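The 46 DNA replication genes described here encode the proteins that license, unwind, copy and repackage the genome in S phase. They were listed by gene symbol, with earlier results of these data known, and each symbol was found on 1 row of a table of 56246 mouse genes. RNA was measured by bulk poly(A) sequencing of tibiae, from which epiphyses and marrow had been removed, in 36 mice that were 6 months old. The 12 wild-type mice (*Lmna* +/+, treatment label NT) were compared with 24 *LMNA* G/G mice, of which 12 were saline-treated and 12 ABE-treated, and each group held 6 females and 6 males. *LMNA* G/G mice carry the double-copy human *LMNA* transgene (*LMNA* G608G/G608G), the model of Hutchinson-Gilford progeria, beside their own *Lmna* gene. By their labels, the saline and ABE mice differed from each other in the injected agent alone. Both were injected by the retro-orbital route on day 14 of life (P14). The adenine base editor (ABE), delivered by a pair of viral vectors, rewrites the mutant transgene base in part of the cells of a tissue, so an ABE-treated tibia holds edited and unedited cells. The study describes the groups as littermates, but in the labels wild-type mice bear numbers of another series, and handling or processing that went with that series cannot be told apart from genotype in the comparisons with wild-type.

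Before a cell enters S phase, the origin recognition complex, *Cdc6* and *Cdt1* load the MCM helicase on DNA, and *Cdc45* and the GINS complex then switch the helicase on. Polymerase alpha with its primase starts each strand, polymerases epsilon and delta extend it on the PCNA clamp, and *Fen1* and *Lig1* join the lagging-strand fragments while histones and methyl marks are restored behind the fork. Most of these genes are transcribed mainly in cycling cells under E2F factors, and in a long bone the cycling cells are largely blood progenitors of the marrow, whereas osteocytes do not divide.

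Promoter stretches of 4 members are printed because E2F factors act at the promoters of many replication genes. *Mcm6* and *Pola1* were picked because they hold a match to an E2F-type word, defined below. *Rrm2* was picked as the most abundant member and *Pold2* as the member that rose against wild-type. RefSeq promoter entries (GRCm38.p6) matched 39 of the 46 members, with 47 entries in all. *Mcm4*, *Gins1*, *Gins2*, *Gins4*, *Rfc2*, *Prim2* and *Pole* had no entry. Each stretch begins 170 bases before the annotated start and ends before the first annotated exon base, and capitals mark the E2F-type words TTTCCCGC, TTTCGCGC, TTTGCCGC and TTTGGCGC and the CCAAT box, each on either strand. The *Mcm6* stretch lies at chr1:128359706-128359875 (minus strand) and holds 3 E2F-type matches, of which a pair overlap each other, and 2 CCAAT boxes. The *Pola1* stretch, chrX:93632156-93632325 (minus strand), holds 1 of each. The *Rrm2* stretch, chr12:24708084-24708240 (plus strand), and the *Pold2* stretch, chr11:5878293-5878426 (minus strand), hold 1 CCAAT box and 0 E2F-type matches.
*Mcm6*: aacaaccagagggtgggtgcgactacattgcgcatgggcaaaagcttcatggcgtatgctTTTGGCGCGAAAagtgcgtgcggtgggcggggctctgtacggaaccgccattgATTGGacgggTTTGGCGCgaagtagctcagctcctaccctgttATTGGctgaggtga
*Pola1*: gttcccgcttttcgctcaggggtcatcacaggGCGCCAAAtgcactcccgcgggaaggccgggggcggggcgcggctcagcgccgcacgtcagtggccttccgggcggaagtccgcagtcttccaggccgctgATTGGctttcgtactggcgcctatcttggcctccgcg
*Rrm2*: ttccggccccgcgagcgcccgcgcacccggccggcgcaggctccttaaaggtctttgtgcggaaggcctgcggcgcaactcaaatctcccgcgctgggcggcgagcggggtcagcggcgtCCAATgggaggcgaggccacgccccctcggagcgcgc
*Pold2*: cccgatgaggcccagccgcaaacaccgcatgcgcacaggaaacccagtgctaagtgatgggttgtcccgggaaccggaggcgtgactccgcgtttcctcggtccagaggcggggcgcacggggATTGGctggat

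In the 250 bases before the start, an E2F-type word was found in 10 of the 47 member entries (21.3%), against 611 of all 32851 promoter entries (1.86%). Its 10 genes were *Cdc6*, *Orc1*, *Mcm5*, *Mcm6*, *Mcm7*, *Gins3*, *Rfc3*, *Pola1*, *Uhrf1* and *Dnmt1*. A CCAAT box stood in 57.4% of member entries and 33.8% of all entries, and the CHR word TTTGAA in 12.8% and 16.0%. A match is a run of letters and not a shown binding site. In the RNA, the 10 members with an E2F-type match and the 29 with an entry but no match had median log2 fold changes of -0.85 and -0.81 in ABE against wild-type, -0.69 and -0.60 in ABE against saline and -0.23 and -0.15 in saline against wild-type, and the difference between these sets of genes was not tested.

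Libraries held 48064068 to 116206662 reads on genes (median 78234452.5), and no member had fewer than 101 reads in any library, so counting error was small beside the spread between mice. Values are TPM, which correct for gene length and library total, divided by a median-ratio size factor per library (scaled TPM), because 7335 very short genes held 84.7% to 96.6% of the deposited TPM. ABE-treated female replicate 1 stood apart, with a size factor of 0.217 against 0.610 to 1.57 in the other libraries, and it had the lowest scaled TPM of all 36 mice for 40 of the 46 members. Results of both sexes together are therefore also given without it. The tissue also differed between groups in its markers: summed osteocyte markers had medians of 21.6, 358 and 258 scaled TPM in the wild-type, saline and ABE groups, cartilage markers 92.2, 11.9 and 17.8, and skeletal muscle markers 870.3, 1807 and 5442.

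All 46 members were expressed above the filter for testing, a mean of 0.1 scaled TPM. On this length-corrected scale their means over the 36 mice ranged from 0.555 for *Chek1* to 17.5 for *Rrm2*. The summed level of the 46 genes was 137, 222 and 279 (lowest, median, highest) in wild-type mice, 107, 206 and 262 in saline-treated mice and 56.5, 139.6 and 206 in ABE-treated mice. The ranges of wild-type and saline-treated mice overlapped over most of their length, and ABE-treated mice lay lower, with overlap.

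Replication genes were lower in ABE-treated tibiae than in both other groups, whereas the members called in saline-treated *LMNA* G/G tibiae against wild-type were mainly a few polymerase genes. Against wild-type, 44 of the 46 members fell and 1 rose in ABE-treated mice at an adjusted p under 0.05 (limma, Benjamini-Hochberg over 22555 genes), where 66.9% of all genes tested were called, 33.8% lower and 33.1% higher. Their median log2 fold change was -0.78, a 1.71-fold lower level, beside -0.02 for all genes tested. Against saline, 45 members fell and 0 rose, with 43.4% of all genes called (21.1% lower, 22.3% higher), and the median was -0.60 (1.52-fold lower) beside -0.0017 for all genes. The count of 0 was also 0 at an unadjusted p under 0.05 and with limma-voom. In saline against wild-type, 6 members fell and 1 rose, where 50.1% of all genes were called (25.2% lower, 25.0% higher). The median of the members was -0.17 (1.12-fold lower) beside 0.0041 for all genes, and 36 of the 46 were below 0, as were 11043 of all 22555 genes. By gene set enrichment on ranked fold changes, the study reported DNA replication and checkpoint signaling programs as under-represented in *LMNA* G/G bone against wild-type. That is another measure than the calls of single genes given here. The count of members called in this comparison depended on the mice and the processing. It was 0 in females alone, where 12.3% of all genes were called lower and 8.84% higher. With TPM rescaled without the very short genes it was 19, all lower. That scaling called 9047 of 22588 genes lower and 2524 higher, so the 19 are near the share of all genes. The comparisons share groups of mice, so their values are set side by side and are not independent of each other.

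Differences between mice of a group were wide, and the groups overlapped for each of the 46 members in every comparison. Non-overlapping groups were found for 4.20% of all genes with saline-treated mice lower than wild-type and 2.53% with them higher, for 4.92% and 3.54% with ABE-treated mice lower and higher than wild-type, and for 0.0133% and 0.0266% with ABE-treated mice lower and higher than saline-treated. In bulk tissue, fewer cells in S phase and less RNA per cell cannot be told apart.

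**Figure D1:**
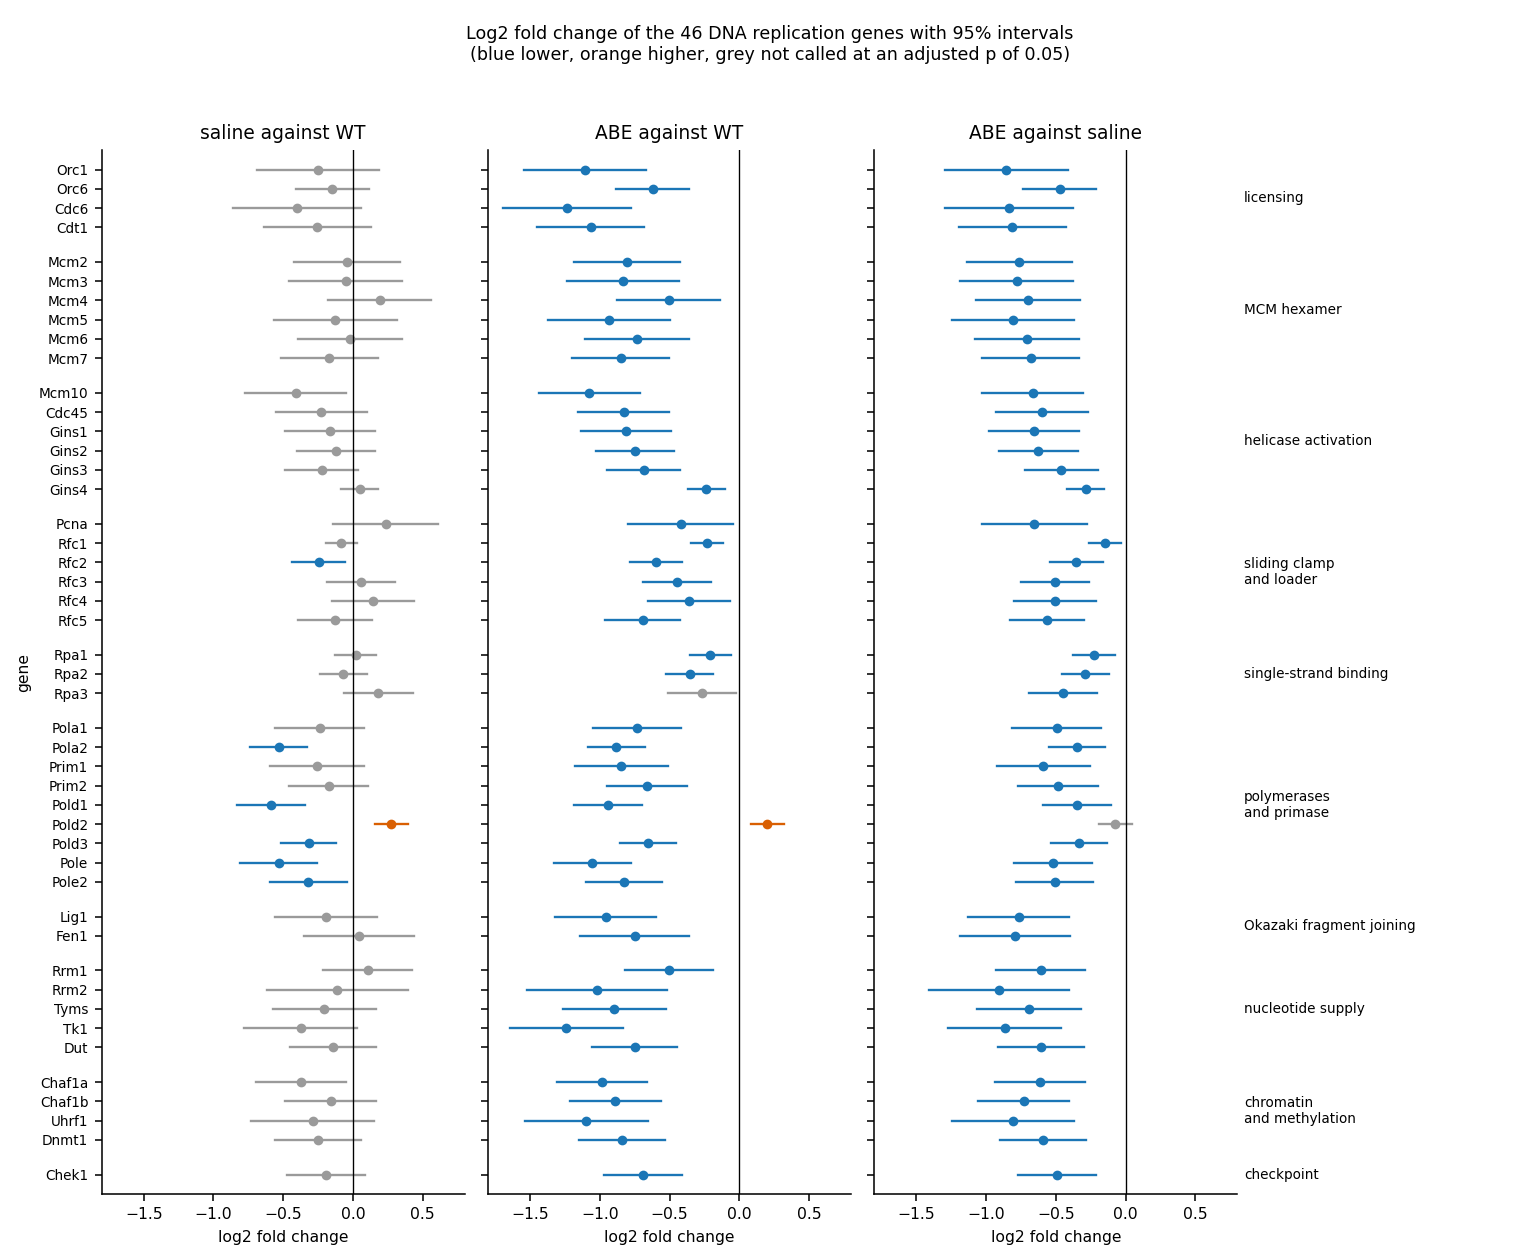
Log2 fold change (x axis) of each of the 46 genes (y axis, grouped by role) in the 3 comparisons, as points with 95% intervals from limma. Nearly all points of ABE-treated against wild-type and against saline-treated mice lie left of 0, while most intervals of saline against wild-type cross 0, apart from *Pold1*, *Pole*, *Pola2*, *Pole2*, *Pold3*, *Rfc2* and *Pold2* among those called.

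The licensing factors had the largest median fall of any role with more than 1 gene in both ABE comparisons. All 4 (*Orc1*, *Orc6*, *Cdc6*, *Cdt1*) fell against wild-type, with a median log2 fold change of -1.09, and against saline, with a median of -0.82. None was called in saline against wild-type by limma, with 0 also at an unadjusted p under 0.05 and a median of -0.25. *Cdt1*, which loads the helicase together with *Cdc6*, was measured at 3.60, 5.96 and 7.10 scaled TPM (lowest, median, highest) in wild-type, 2.43, 4.78 and 7.20 in saline-treated and 0.847, 2.99 and 5.29 in ABE-treated mice. Of the ABE-treated mice, 9 of 12 lay below the lowest wild-type mouse and 4 below the lowest saline-treated mouse. Its log2 fold changes were -1.07 ± 0.19 (SE) against wild-type (adjusted p = 8.75e-06) and -0.81 ± 0.19 against saline (adjusted p = 0.00168), and -0.26 ± 0.19 for saline against wild-type (adjusted p = 0.265).

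*Cdc6*, the ATPase that brings *Cdt1* and the helicase to the origin, had medians of 4.41 in wild-type (2.36 to 5.22), 3.46 in saline-treated (1.31 to 4.28) and 1.89 in ABE-treated mice (0.401 to 3.80). It was among the 5 members that fell most in both ABE comparisons, by 1.24 on the log2 scale against wild-type (adjusted p = 1.30e-05) and by 0.83 against saline (adjusted p = 0.00426). All 12 ABE-treated mice were below the wild-type median and 11 below the saline median. *Orc1*, the origin recognition subunit whose level follows the cell cycle, had medians of 1.87 (0.977 to 2.29), 1.51 (0.624 to 2.27) and 0.803 (0.173 to 1.61) in the same order. It fell by 1.10 against wild-type (adjusted p = 3.53e-05) and by 0.85 against saline (adjusted p = 0.00279). *Orc6*, another subunit, fell less, by 0.62 and 0.47.

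The 6 subunits of the MCM hexamer, the motor of the replicative helicase, moved together. All 6 fell in ABE-treated mice against wild-type (median -0.82) and against saline (median -0.74), and 0 were called in saline against wild-type by limma or at an unadjusted p under 0.05 (median -0.05). *Mcm5*, the most abundant of them, had 6.64, 10.99 and 14.6 scaled TPM in wild-type, 4.50, 10.2 and 14.2 in saline-treated and 1.41, 6.74 and 10.6 in ABE-treated mice. The highest wild-type and saline-treated mice were close, and 1 saline-treated and 5 ABE-treated mice lay below the lowest wild-type mouse. *Mcm5* fell by 0.93 on the log2 scale against wild-type (adjusted p = 3.01e-04) and by 0.81 against saline (adjusted p = 0.00409), and saline against wild-type was -0.13 ± 0.22 (adjusted p = 0.652). Across the 6 subunits the falls ran from 0.51 for *Mcm4* to 0.93 for *Mcm5* against wild-type, and from 0.68 for *Mcm7* to 0.81 for *Mcm5* against saline.

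Among the helicase activators (*Mcm10*, *Cdc45* and the 4 GINS subunits), all 6 fell in both ABE comparisons, with medians of -0.78 and -0.61, and 0 were called in saline against wild-type (1 at an unadjusted p under 0.05). *Mcm10*, which helps the helicase start moving, had 1.004, 1.70 and 2.13 scaled TPM in wild-type, 0.533, 1.23 and 1.71 in saline-treated and 0.230, 0.794 and 1.40 in ABE-treated mice. The groups stepped down in that order with overlap at each step. Its fall against wild-type was 1.07 (adjusted p = 3.31e-06) and against saline 0.66 (adjusted p = 0.00413), and in saline against wild-type it stood at -0.41 ± 0.18 (adjusted p = 0.0544). *Gins4* was the most abundant of the role and moved least, with medians of 5.31 (4.31 to 6.10), 5.47 (4.40 to 6.36) and 4.60 (3.68 to 5.43). *Gins4* fell by 0.24 against wild-type (adjusted p = 0.00182) and by 0.28 against saline (adjusted p = 0.00151). Its partners *Gins1*, *Gins2* and *Gins3* fell by 0.81, 0.75 and 0.68 against wild-type.

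**Figure D2:**
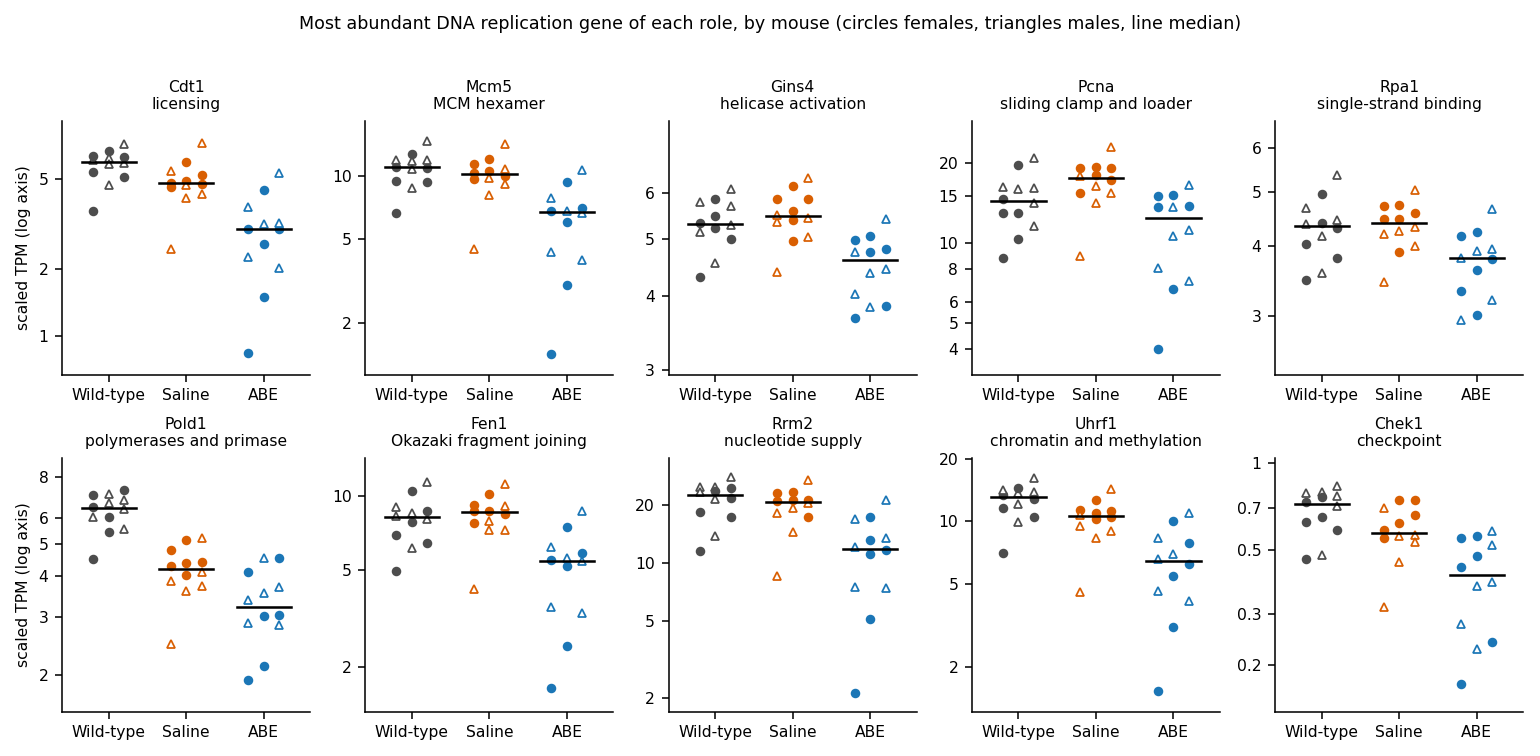
Scaled TPM (log axis) of the most abundant gene of each of the 10 roles in each mouse, with circles for females, triangles for males and a line at the median of 12. ABE-treated mice spread downward in every panel, and the lowest ABE point of most panels is ABE-treated female replicate 1, while in the *Pold1* panel saline-treated mice also sit below wild-type.

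The sliding clamp *Pcna* and the 5 subunits of its loader fell in ABE-treated mice, 6 of 6 against wild-type (median -0.43) and 6 of 6 against saline (median -0.51). *Pcna*, which tethers polymerases to DNA, had 8.83, 14.4 and 20.8 scaled TPM in wild-type, 8.94, 17.6 and 23.0 in saline-treated and 4.01, 12.4 and 16.6 in ABE-treated mice. Saline-treated mice had the highest median, and 10 of the 12 reached or passed the wild-type median. *Pcna* was at 0.23 ± 0.18 in saline against wild-type (adjusted p = 0.30), fell by 0.42 in ABE-treated against wild-type (adjusted p = 0.0439) and fell by 0.65 against saline (adjusted p = 0.00568). Of the loader, *Rfc2* was the subunit called in all 3 comparisons, with falls of 0.25 (adjusted p = 0.0260), 0.60 and 0.35 in saline against wild-type, ABE against wild-type and ABE against saline. *Rfc1*, the large subunit, moved least, by 0.23 against wild-type and 0.15 against saline (adjusted p = 0.0305). The call of *Pcna* against wild-type was lost in 12 of the 36 fits that left out 1 library. *Pcna* also has processed copies that can share its reads, of which *Pcna-ps2* had a mean of 1.89 scaled TPM.

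Replication protein A, which covers single-stranded DNA in repair as well as replication, had the smallest median change of the 10 roles in both ABE comparisons. Its 3 subunits had median log2 fold changes of 0.02, -0.27 and -0.29 in saline against wild-type, ABE against wild-type and ABE against saline, with 0, 2 and 3 called lower. *Rpa1*, the large subunit, had 3.48, 4.36 and 5.36 scaled TPM in wild-type, 3.45, 4.41 and 5.06 in saline-treated and 2.95, 3.81 and 4.67 in ABE-treated mice. Its falls in ABE-treated mice were 0.21 against wild-type (adjusted p = 0.0129) and 0.23 against saline (adjusted p = 0.0133). *Gm47300* shares exon bases with *Rpa1* on the same strand and had a mean of 22.5 scaled TPM, so the assignment of reads to *Rpa1* is uncertain. *Rpa3* was the single member not called in ABE against wild-type, at -0.27 ± 0.12 (adjusted p = 0.0507).

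Of the 7 members called in saline against wild-type, 6 were polymerase genes. Of 9 polymerase and primase genes, 5 fell and 1 rose in saline against wild-type, with a median of -0.32. Of all genes tested, 50.1% were called in that comparison, 25.2% lower and 25.0% higher. In ABE against wild-type, 8 of the 9 fell and *Pold2* rose, with a median of -0.83. Against saline, 8 fell in ABE-treated mice (median -0.49). The 1 other call among the 46 members in saline-treated mice was the fall of *Rfc2*. All 7 saline calls were also made in males alone, and 0 of the 7 in females alone or with the marrow marker lists as covariates.

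*Pold1*, the catalytic subunit of polymerase delta, had 4.51, 6.45 and 7.33 scaled TPM in wild-type, 2.49, 4.21 and 5.21 in saline-treated and 1.93, 3.21 and 4.55 in ABE-treated mice. Below the lowest wild-type mouse lay 9 of 12 saline-treated and 10 of 12 ABE-treated mice. *Pold1* fell by 0.59 (adjusted p = 1.23e-04) in saline-treated and by 0.94 (adjusted p = 4.88e-08) in ABE-treated mice against wild-type, and by 0.35 between ABE-treated and saline-treated mice (adjusted p = 0.0187). *Pole*, the catalytic subunit of polymerase epsilon, had 1.21, 1.98 and 2.44 in wild-type, 0.679, 1.28 and 1.63 in saline-treated and 0.446, 0.916 and 1.39 in ABE-treated mice. All 12 saline-treated and all 12 ABE-treated mice were below the wild-type median. Its falls were 0.53 (adjusted p = 0.00160), 1.05 (adjusted p = 6.86e-08) and 0.52 (adjusted p = 0.00371) in saline against wild-type, ABE against wild-type and ABE against saline.

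*Pola2*, the accessory subunit of polymerase alpha, showed the same order, with medians of 2.30 in wild-type (1.53 to 2.59), 1.55 in saline-treated (0.938 to 1.85) and 1.13 in ABE-treated mice (0.864 to 1.73). It fell by 0.53 and 0.88 against wild-type (adjusted p = 4.4e-05 and 6.20e-09) and by 0.35 against saline (adjusted p = 0.00650). The accessory subunits *Pole2* and *Pold3* fell by 0.32 each in saline against wild-type, with adjusted p = 0.0477 and 0.00738, and *Pole2* lost its call in 23 of the 36 fits that left out 1 library. *Pole2* had medians of 1.14 (0.665 to 1.36), 0.874 (0.498 to 1.16) and 0.609 (0.267 to 0.870) in the wild-type, saline and ABE groups, and *Pold3* had 3.44 (2.41 to 3.93), 2.69 (1.74 to 3.15) and 2.12 (1.29 to 2.71). All 12 saline-treated mice were below the wild-type median of *Pold3* and 11 of 12 below that of *Pole2*. The catalytic subunit of polymerase alpha, *Pola1*, and the primase subunits *Prim1* and *Prim2* had values of -0.24, -0.26 and -0.17 in saline against wild-type, and none of the 3 was called (adjusted p = 0.206, 0.197 and 0.310). In ABE-treated mice these 3 fell by 0.73, 0.85 and 0.66 against wild-type.

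*Pold2*, the small subunit that joins the parts of polymerase delta, went the other way. It had 2.53, 2.74 and 3.53 scaled TPM in wild-type, 3.04, 3.38 and 4.05 in saline-treated and 2.698, 3.16 and 3.87 in ABE-treated mice. All 12 saline-treated mice and 11 of 12 ABE-treated mice lay above the wild-type median. *Pold2* rose by 0.27 ± 0.06 (adjusted p = 1.90e-04) and 0.20 ± 0.06 (adjusted p = 0.00259) against wild-type, and was at -0.07 ± 0.06 between ABE-treated and saline-treated mice (adjusted p = 0.317, 95% interval -0.19 to 0.04). These small rises depend on the scaling: with TPM as deposited, *Pold2* was at 0.09 (adjusted p = 0.702) and -0.36 (adjusted p = 0.0384) against wild-type in saline-treated and ABE-treated mice, where the medians of all genes were -0.16 and -0.49, and with TPM rescaled to the sum over the other genes than the very short ones it was at 0.07 and -0.02, where those medians were -0.17 and -0.21.

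*Lig1* and *Fen1*, the ligase and the flap nuclease that finish Okazaki fragments, fell in ABE-treated mice by 0.96 and 0.75 against wild-type and by 0.77 and 0.79 against saline. *Fen1* had 4.95, 8.19 and 11.4 scaled TPM in wild-type, 4.18, 8.56 and 11.1 in saline-treated and 1.65, 5.45 and 8.71 in ABE-treated mice. The ranges of wild-type and saline-treated mice overlapped over most of their length, and *Fen1* was at 0.04 ± 0.19 between them (adjusted p = 0.874).

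All 5 genes of nucleotide supply fell in ABE-treated mice, with medians of -0.90 against wild-type and -0.69 against saline, and 0 were called in saline against wild-type by limma or at an unadjusted p under 0.05. *Rrm2*, the S-phase subunit of ribonucleotide reductase and the most abundant member, had 11.6, 22.6 and 28.1 scaled TPM in wild-type, 8.58, 20.8 and 27.1 in saline-treated and 2.13, 11.9 and 21.3 in ABE-treated mice. All 12 ABE-treated mice were below the wild-type median and 11 below the saline median. *Rrm2* fell by 1.02 against wild-type (adjusted p = 5.24e-04) and by 0.91 against saline (adjusted p = 0.00465), while its constitutive partner *Rrm1* fell by 0.50 and 0.61. *Tk1*, the thymidine kinase of S phase, had medians of 4.97 (2.68 to 6.24), 3.75 (1.72 to 4.88) and 2.23 (0.561 to 3.96) in the wild-type, saline and ABE groups. Its fall against wild-type, 1.24 on the log2 scale, was the largest of all 46 members to 2 decimals together with *Cdc6* (adjusted p = 2.09e-06), and its fall against saline was 0.86 (adjusted p = 0.00157). *Tyms* and *Dut*, which make dUMP into dTMP and keep dUTP low, fell by 0.90 and 0.75 against wild-type.

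The 4 genes that restore chromatin and methylation behind the fork fell as well, with medians of -0.94 against wild-type and -0.67 against saline in ABE-treated mice, and 0 were called in saline against wild-type (1 at an unadjusted p under 0.05). *Uhrf1*, which reads half-methylated DNA and recruits *Dnmt1*, had 7.08, 13.1 and 16.1 scaled TPM in wild-type, 4.58, 10.6 and 14.2 in saline-treated and 1.53, 6.43 and 10.9 in ABE-treated mice. Of the ABE-treated mice, 8 lay below the lowest wild-type mouse. It fell by 1.10 against wild-type (adjusted p = 4.11e-05) and by 0.81 against saline (adjusted p = 0.00417). *Chaf1a* and *Chaf1b*, subunits of the histone chaperone CAF-1, fell by 0.98 and 0.89 against wild-type, and the maintenance methylase *Dnmt1* by 0.84. The checkpoint kinase *Chek1*, which restrains origin firing when forks stall, was the least abundant member, with medians of 0.720 (0.466 to 0.830), 0.573 (0.317 to 0.742) and 0.410 (0.172 to 0.582). *Chek1* fell by 0.69 against wild-type and by 0.49 against saline (adjusted p = 0.00525).

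Replication genes fell in ABE against wild-type in both sexes, whereas against saline 43 members were called in females and 3 in males, a difference between the sexes that its own test did not call for any member. Fitted in females alone, 37 members fell and 1 rose in ABE against wild-type, where 25.2% of all genes were called lower and 25.9% higher, and 43 fell against saline (0 higher), where 11.3% and 14.1% were. In males alone, 42 fell against wild-type (31.7% of all genes lower, 30.9% higher) and 3 (*Gins2*, *Rfc5* and *Rpa3*) against saline (9.06% of all genes lower, 10.2% higher), where 14 were lower at an unadjusted p under 0.05 and all 46 log2 fold changes were below 0. The median against saline was -0.78 in females and -0.41 in males. The female value includes ABE-treated female replicate 1, and females alone were not fitted without that library. Summed levels had medians of 205 in female and 232 in male wild-type mice, 207 and 187 in saline-treated mice and 139 and 139.6 in ABE-treated mice. Saline-treated males were lower than saline-treated females by their medians, with a wide range of 107 to 262. The test of the difference itself called 0 of 46 members in each comparison (limma interaction), as did limma-voom, with 0, 0 and 1 at an unadjusted p under 0.05 for saline against wild-type, ABE against wild-type and ABE against saline. Over all genes, 1.02%, 2.90% and 0.0621% were called in these tests, and 4903, 4323 and 3321 of 22555 had an unadjusted p under 0.05. In saline against wild-type, 0 members were called in females by limma (2 lower and 1 higher at an unadjusted p under 0.05, median 0.02) and 10 in males (9 lower, 1 higher, median -0.37). Of all genes, 12.3% were lower and 8.84% higher in that comparison in females, and 25.0% and 26.8% in males.

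Without ABE-treated female replicate 1, 42 members fell and 1 rose against wild-type (median -0.67), 44 fell against saline (median -0.50), and 8 fell and 1 rose in saline against wild-type, so the counts in ABE-treated mice did not rest on that library. Its muscle marker sum of 11016 was the highest and its erythroid marker sum of 27.7 the lowest of all mice. Saline-treated male replicate 11 had the lowest member sum of its group, 107, and the highest muscle sum, 6927.

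The other genes of the pathway, 61 in all and all tested, mostly moved in the same direction as the members in ABE-treated mice. Of these, 49 fell and 7 rose against wild-type (median -0.65), where 33.8% of all genes were called lower and 33.1% higher. Against saline, 50 fell and 3 rose (median -0.45), beside 21.1% and 22.3% of all genes. In saline against wild-type, 14 fell and 6 rose (median -0.16), beside 25.2% and 25.0% of all genes. All 11 firing kinases and factors fell in both ABE comparisons, and 6 of them (*Cdc7*, *Cdk2*, *Topbp1*, *Ticrr*, *Recql4* and *Donson*) in saline against wild-type. Cyclin E1 (*Ccne1*) had 1.95, 3.84 and 4.46 scaled TPM in wild-type, 1.29, 3.37 and 4.90 in saline-treated and 0.371, 1.84 and 3.61 in ABE-treated mice, and fell by 1.07 and 0.89 in the ABE comparisons. Of the 6 other origin genes, 3 fell and 2 rose in ABE against wild-type, the rises being *Orc3* by 0.17 and *Orc4* by 0.13.

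Among 16 further fork components, 13 fell in ABE-treated mice against wild-type and 14 against saline, and 3 fell and 1 rose in saline against wild-type. *Dna2*, a nuclease that trims long flaps, had 1.90, 2.92 and 3.33 scaled TPM in wild-type, 0.842, 1.79 and 2.49 in saline-treated and 0.496, 1.27 and 1.87 in ABE-treated mice. Its ABE-treated and wild-type mice did not overlap, nor did those of *E2f3*. *Dna2* fell by 0.68 in saline-treated and by 1.22 in ABE-treated mice against wild-type (adjusted p = 5.56e-04 and 5.14e-08). *Chtf18*, a subunit of the alternative clamp loader, had medians of 2.24 (1.39 to 2.74), 1.40 (0.717 to 1.77) and 0.862 (0.384 to 1.57) and fell by 0.64 and 1.26. *Pole3*, a small subunit of polymerase epsilon that also sits in chromatin remodelers, was higher in every saline-treated mouse (3.23, 3.35 and 4.05) than in any ABE-treated mouse (2.38, 2.64 and 3.20), and like *Pold2* it rose in saline against wild-type, by 0.32. *Pole3* is named because its groups did not overlap, a choice made after its values were seen.

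The E2F factors and pocket proteins, which switch replication genes on and off, fell in 9 of 10 cases in ABE against wild-type. *E2f2* was the most abundant E2F gene measured, with 11.5, 21.0 and 25.5 scaled TPM in wild-type, 6.83, 15.8 and 19.5 in saline-treated and 2.14, 7.66 and 16.1 in ABE-treated mice. Most ABE-treated mice lay below both other groups' medians. *E2f2* fell by 1.41 against wild-type and by 0.98 against saline (adjusted p = 0.00129), and the repressor *E2f8* by 1.21 and 0.91, with medians of 6.91 (3.47 to 8.68), 5.35 (2.18 to 7.17) and 3.003 (0.702 to 5.38). *Rbl2*, the pocket protein of resting cells, rose by 0.29 against wild-type and by 0.20 against saline.

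*Cdkn1a* (p21), an inhibitor of the S-phase kinases and a p53 target that also binds PCNA, had the largest difference of the pathway. It had 1.04, 1.58 and 2.63 scaled TPM in wild-type, 3.78, 6.65 and 9.24 in saline-treated and 6.20, 7.88 and 11.5 in ABE-treated mice. Every *LMNA* G/G mouse, saline-treated or ABE-treated, was above every wild-type mouse. *Cdkn1a* rose by 1.95 ± 0.14 (SE, 3.86-fold, adjusted p = 1.01e-12) in saline-treated and by 2.19 ± 0.14 (4.58-fold, adjusted p = 5.47e-14) in ABE-treated mice, and was at 0.25 ± 0.14 between the treatments (adjusted p = 0.159). *Cdkn1c* rose by 0.47, 0.89 and 0.42 in saline against wild-type, ABE against wild-type and ABE against saline, whereas *Cdkn1b* and *Cdkn2c* fell in both ABE comparisons. *Tk2* did not overlap either: the mitochondrial thymidine kinase had medians of 2.50, 1.82 and 1.51 and fell by 0.41 and 0.68 against wild-type.

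Mitosis genes and erythroid and granulocyte precursor markers fell with the replication genes in ABE-treated mice, and the B cell, neutrophil and osteoclast lists had patterns of their own. All 10 mitosis genes fell in ABE-treated mice, with medians of -0.89 against wild-type and -0.85 against saline, and 1 fell in saline against wild-type. Their summed level had medians of 97.3, 87.7 and 57.5 scaled TPM in the wild-type, saline and ABE groups. Of 12 erythroid markers, 11 fell in both ABE comparisons (medians -0.995 and -1.05), and their sum was 144, 293.5 and 394 in wild-type, 113, 307 and 398 in saline-treated and 27.7, 143 and 292 in ABE-treated mice. Of 5 granulocyte precursor markers, 4 and 5 fell, and their sum had medians of 134, 155 and 99.3, with a range of 18.5 to 269 in ABE-treated mice. B cell markers, by contrast, fell in 8 of 8 cases against wild-type in both *LMNA* G/G groups, and 0 were called between the treatments by limma. Of 6 pre-B cell markers, 4, 3 and 2 fell in saline against wild-type, ABE against wild-type and ABE against saline. Of 9 neutrophil markers, 3 rose in saline against wild-type (median 0.51), 1 fell in ABE against wild-type (median -0.16) and 7 fell in ABE against saline (median -0.66). All 7 osteoclast markers rose in saline against wild-type (median 1.09), 5 rose in ABE against wild-type (median 0.54) and 5 fell in ABE against saline (median -0.55). Of 7 osteoblast markers 3 rose in either group against wild-type. Of all genes, 25.2%, 33.8% and 21.1% were called lower in saline against wild-type, ABE against wild-type and ABE against saline, and 25.0%, 33.1% and 22.3% higher. For lists this short, the osteoblast counts and the pre-B cell counts of the ABE comparisons were not far above these shares.

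Skeletal muscle markers moved opposite to the replication genes in the ABE comparisons: 10 of 10 rose against wild-type and 8 of 10 against saline. In saline against wild-type 7 of 10 rose (median 1.35), while 39 of the 46 replication genes were not called (median -0.17). Of all genes, 33.1%, 22.3% and 25.0% were called higher in these comparisons, in the same order. The muscle marker sum was 173, 870.3 and 2658 in wild-type, 271, 1807 and 6927 in saline-treated and 893, 5442 and 11016 in ABE-treated mice. No defining marker of these lists was at 0 in any library, apart from the cartilage marker *Matn1*, which was at 0 in the lowest ABE-treated mouse. The part of marrow and muscle content in the difference of the replication genes was not tested. The fits given next hold these lists as covariates, and the lists themselves differed between the groups.

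**Figure D3:**
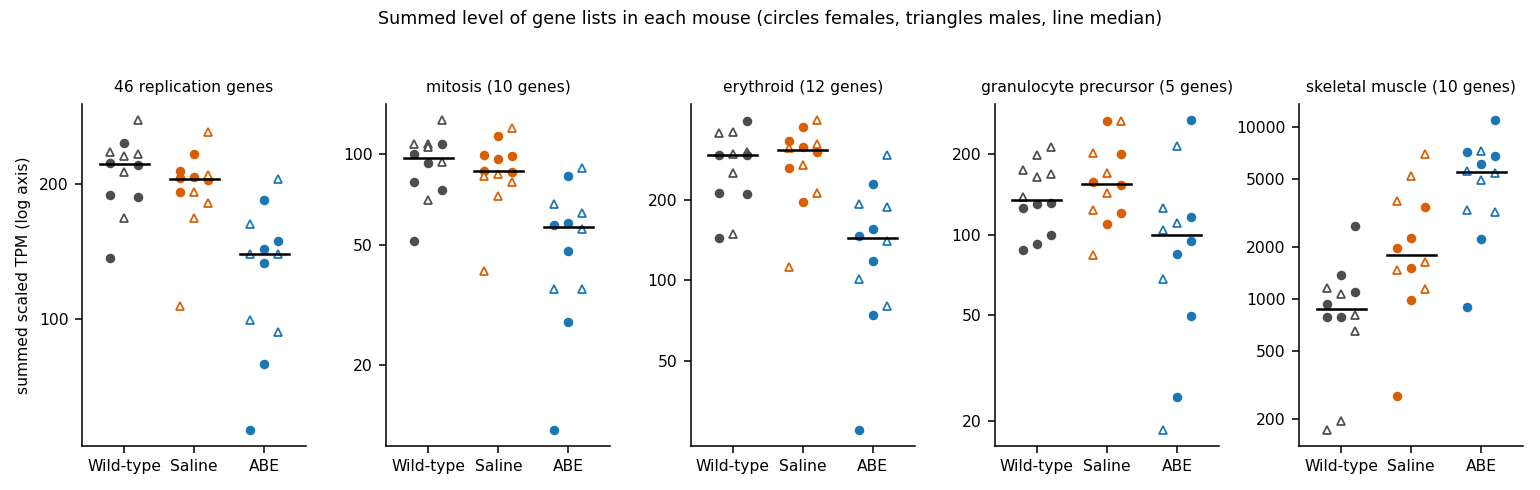
Summed scaled TPM (log axis) per mouse of the 46 replication genes and of the mitosis, erythroid, granulocyte precursor and skeletal muscle lists, with circles for females, triangles for males and a line at the median of 12. The replication, mitosis and erythroid sums fall together in ABE-treated mice, whose muscle sums rise to a median of 5442.

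With the mean levels of the erythroid, granulocyte precursor, neutrophil, B cell and pre-B cell lists as covariates, 5 members stayed lower in ABE against wild-type (*Pold1*, *Pole*, *Pola2*, *Pold3* and *Pole2*), with a median of -0.09 over the 46 and 12.9% of all genes lower and 12.6% higher. Against saline, *Gins2* alone was called (median -0.06, 2.86% of all genes lower, 4.18% higher), and in saline against wild-type 0 were called by limma, with 4 lower and 6 higher at an unadjusted p under 0.05, where 7.36% of all genes were called lower and 5.72% higher. With the muscle list as covariate, *Pold1*, *Pole*, *Pola2* and *Pold3* stayed lower against wild-type (median -0.23, 16.5% of all genes lower, 15.9% higher) and *Chaf1b* and *Gins4* against saline (median -0.31, all 46 below 0, 3.12% of all genes lower, 6.37% higher). In saline against wild-type the muscle covariate gave 2 lower and 7 higher, where 22.7% of all genes were lower and 20.4% higher, among the members higher *Pcna*, *Mcm4* and *Rrm1*. *Pold1*, for example, was at -0.29 (adjusted p = 0.0383) with the marrow lists and -0.50 (adjusted p = 0.00379) with the muscle list in ABE against wild-type, and *Pole* at -0.39 (adjusted p = 0.00847) and -0.52 (adjusted p = 0.00569). *Mcm5* was at 0.04 and -0.20 and *Rrm2* at 0.05 and -0.21 in the same fits, with adjusted p of at least 0.565. *Cdkn1a* stayed called against wild-type in both groups under both covariates, with log2 fold changes between 1.64 and 1.80.

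**Figure D4:**
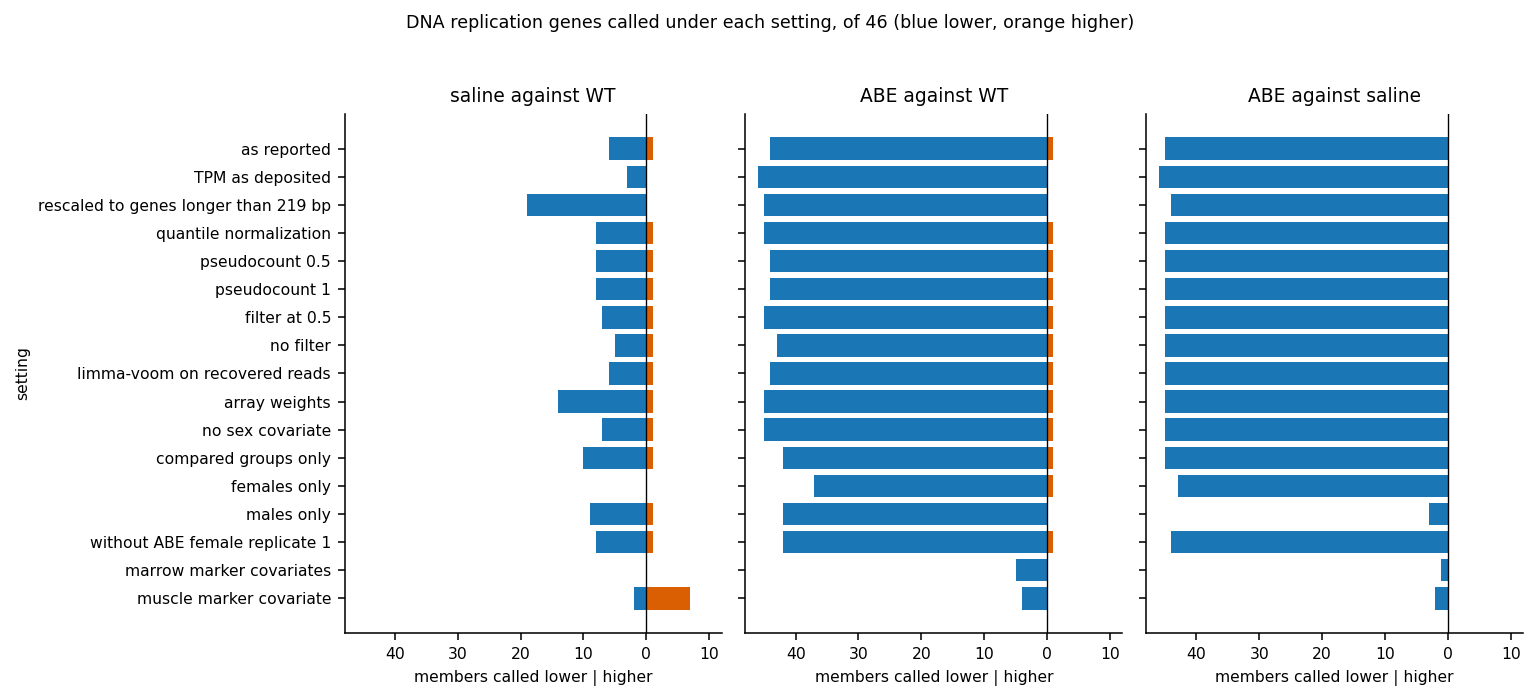
Number of the 46 replication genes called lower (left of 0) and higher (right of 0) at an adjusted p of 0.05 in each comparison (panels) under each setting (rows). Counts in the ABE comparisons stay between 37 and 46 lower under most settings and drop to 5 or fewer with the marrow or muscle covariates and, against saline, in males alone.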

How the data were processed

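Total RNA of tibiae was extracted with TRIzol, treated with DNase and sequenced from stranded poly(A) libraries (TruSeq) by the authors, who aligned reads to GRCm38 with STAR (2.73a in the submitters' processing notes) and counted them on GENCODE genes with QoRTs. Per the deposited table, values are TPM, and how they were calculated and which strand setting was used in counting are not given in the sources used here. By their values, TPM equal whole reads over the length of a gene after 218 bp are taken off (never under 1 bp), scaled to 1000000 per library, with 100% of values whole within 0.001 reads. The 46 members and all gene lists were chosen with earlier results of these data known.

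TPM of each library were divided by a median-ratio size factor over 19492 genes. Groups were compared with limma 3.58.1 (R 4.3.3, trend) on log2(scaled TPM + 0.1), which understates changes of low genes, with the 36 libraries in 1 fit and sex as covariate, over 22555 genes with a mean of at least 0.1. Calls needed a Benjamini-Hochberg adjusted p of 0.05, two-sided, over all genes tested, and the difference between sexes was an interaction term. Mice are separate animals by their labels, 198 pairs within groups held 0 duplicates, and replicate numbers follow the order of deposit. Values were given for the most abundant member of each role, for the 5 called members with the largest change in each comparison, and for other pathway genes by the same rule on change (3 per comparison). Alternatives were other scalings (TPM as deposited, TPM rescaled without very short genes, quantile normalization), pseudocounts, filters, limma-voom on recovered reads, array weights, other covariates, either sex alone, compared groups only and each library left out. Exons of 15 members overlap other genes, mostly on the opposite strand (*Fen1* with Tmem258, *Mcm7* with Cops6), and coordinates follow GENCODE vM21 on GRCm38, which matched all 46 members. In data simulated for ABE against saline on 22555 genes, the test recovered 55 of 100 genes changed 1.5-fold and 99 of 100 changed 2-fold, with 7 false calls. The simulation changed 200 genes, drew every gene independently with the same dispersion and held no difference in tissue content between mice. Its rates therefore do not carry over to the members of these libraries. Tables were handled with Python 3.11.15, numpy 2.4.6 and pandas 2.3.3, and plots drawn with matplotlib 3.10.9. Transgene and editor transcripts were not analysed here.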

Additional observations from a re-analysis of the deposited data

Results flagged for a closer look

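Of the 46 members and 61 other pathway genes, 2 genes of nucleotide supply outside the 46 had a difference between ABE-treated and wild-type mice that itself differed between the sexes by the interaction test (limma, adjusted p under 0.05). *Dctpp1*, which hydrolyzes modified dCTP, had medians of 3.34 in female and 3.91 in male wild-type mice, 4.84 and 5.57 in saline-treated mice, and 6.35 and 4.57 in ABE-treated mice, an interaction (female minus male) of 0.54 on the log2 scale (adjusted p = 0.0342). *Shmt1*, an enzyme of one-carbon supply to thymidylate, had medians of 0.478 and 0.528, 0.527 and 0.446, and 0.558 and 0.370 scaled TPM in the same order, an interaction of 0.59 (adjusted p = 0.0251). At an unadjusted p under 0.05, 7 of the 61 pathway genes and 0 of the 46 members passed this test, beside 4323 of all 22555 genes. At an adjusted p under 0.05 the test called 2.90% of all genes, so 2 calls among these lists do not stand out from that share.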

How the results depend on the processing

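Counts of members called in the ABE comparisons and their medians kept their direction under every alternative run, but not their size. With the marrow lists as covariates, 5, 1 and 0 members were called in ABE against wild-type, ABE against saline and saline against wild-type (medians -0.091, -0.063 and -0.0009), with 5743, 1587 and 2950 of all genes, and 1 member in the sex difference of ABE against wild-type. With the muscle covariate, 4 and 2 members were called in ABE against wild-type and against saline (median -0.23 in the former), with 7310 and 2140 of all genes. In males alone, 3 members and 4347 genes were called against saline, and in females alone 5726 genes against saline, and 4771 genes and 0 members in saline against wild-type. The cause was not tested. In saline against wild-type, members called were 3 with TPM as deposited (6398 of all genes), 19 with TPM rescaled without the very short genes, 15 with array weights and 11 with the compared groups only, and the median of ABE against wild-type was -1.31 with TPM as deposited. Scaling moved the split of all genes: lower and higher calls were 5677 and 5631 as reported, 4940 and 1458 as deposited and 9047 and 2524 rescaled without the very short genes in saline against wild-type, 7617 and 7476, 12587 and 2116, and 10411 and 4890 in ABE against wild-type, and 4766 and 5032, 8102 and 753, and 4107 and 4550 in ABE against saline. The median of all genes was at -0.16, -0.49 and -0.31 as deposited and at -0.17, -0.21 and -0.02 rescaled, in the same order of comparisons.

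Log2 fold changes of named genes that changed sign were mostly small. In saline against wild-type they were 0.028 for *Cdt1*, 0.13 for *Mcm5*, 0.082 for *Rrm2*, 0.083 for *Uhrf1* and 0.088 for *Ccne1* with the marrow lists. With the muscle covariate they were 0.061 for *Cdt1*, 0.23 for *Mcm5*, 0.28 for *Rrm2*, 0.095 for *Uhrf1*, 0.037 for *Chek1*, 0.067 for *Orc1*, 0.098 for *E2f8* and 0.165 for *Ccne1*. In females alone they were 0.11 for *Mcm5*, 0.16 for *Rrm2*, 0.033 for *Chek1* and 0.0030 for *Ccne1*, and in males alone -0.022 for *Gins4*, -0.019 for *Pcna*, -0.072 for *Rpa1* and -0.17 for *Fen1*. *Gins4*, *Rpa1* and *Fen1* were at -0.14, -0.17 and -0.15 as deposited and at -0.155, -0.18 and -0.16 rescaled without the very short genes, and *Gins4* at -0.0057 after quantile normalization. In ABE against wild-type the marrow lists gave 0.038 for *Mcm5*, 0.047 for *Gins4*, 0.29 for *Pcna*, 0.033 for *Rpa1*, 0.14 for *Fen1*, 0.054 for *Rrm2* and 0.0072 for *Ccne1*, and the muscle covariate 0.18 for *Pcna*. In ABE against saline, *Rpa1* was at 0.016 with the marrow lists, and *Cdkn1a* at -0.14 as deposited and -0.0001 with the muscle covariate.

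Leaving out 1 library at a time gave 5 to 9 members called in saline against wild-type (10537 to 11949 of all genes, median -0.22 to -0.09), 43 to 46 in ABE against wild-type (14768 to 15388, -0.85 to -0.67) and 44 to 45 in ABE against saline (8454 to 10972, -0.68 to -0.50). Signs changed then in saline against wild-type for *Rpa1* (-0.0078 to 0.0493), *Fen1* (-0.0138 to 0.136) and *Rrm2* (-0.18 to 0.0020). No paired analysis was possible because the labels give no replicate numbers shared between groups. The test of the sex difference without a sex term could not be fitted.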
